A study of Mus musculus with 4 samples.

Results

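The potassium channel genes were taken as every protein-coding mouse gene whose symbol starts with Kcn, except Kcnj10 and Kcnj13, found through the RefSeq accession of each probe. This gave 92 genes, all of them on the array, out of 23461 named genes, and 146 probes. The set held 65 genes of pore-forming subunits, 10 genes of silent modifier subunits (Kcnf, Kcng, Kcns and Kcnv) and 17 genes of auxiliary or regulatory proteins (Kcnab, Kcne, Kcnip, Kcnmb and Kcnrg). Choosing by symbol used no measured value of these arrays, but the set was picked with earlier results of these data known. Single-colour microarrays measured RNA of the whole brain, from wild-type mice and from mice labelled Nav1.8CreROSA26DTA. In the latter, as background, Cre recombinase expressed from the locus of the sodium channel Nav1.8 switches on diphtheria toxin A from the ROSA26 locus, which ablates sensory neurons, chiefly nociceptors. The driver acts mainly in peripheral ganglia, so the brain was not the main target of the toxin. Each genotype was injected with PBS or with lipopolysaccharide (LPS, a component of the Gram-negative bacterial outer membrane). The LPS dose was 20 mg/kg by the intraperitoneal route, with brains taken at 12 hours. Each of the 4 groups held 1 array, and the labels give neither age nor sex, nor whether an array held RNA of 1 animal or of a pool. The labels do not say whether wild-type mice carried either allele alone.

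Potassium channels let potassium ions leave or enter cells and thereby set the resting potential, shape and end action potentials, and time repetitive firing. Voltage-gated channels (Kcna to Kcnd, Kcnh and Kcnq) open on depolarisation, calcium- and sodium-activated channels (Kcnma1, Kcnn, Kcnt) follow intracellular ions, inward rectifiers (Kcnj) and tandem-pore channels (Kcnk) carry background current. In brain most members are known from neurons, whereas some are known chiefly from glia or vessels: Kcnj16 from astrocytes, Kcnk13 from microglia and Kcnj8 from pericytes.

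Values are given below as the scaled signal, the probe's background-corrected brightness divided by the 75th percentile of its array, so that 1 is the brightness of that percentile. Scaled signals of different genes are not compared, since probes differ in how brightly they bind. Differences are log2 values, with limma's standard error after ±. The LPS effect averaged over genotypes and the genotype effect averaged over injections each set 2 arrays against 2. They were tested in 1 limma fit over 17132 genes well above background on at least 2 arrays, with a Benjamini-Hochberg adjusted p threshold of 0.05. That fit has 1 residual degree of freedom, pooled across genes, so its p-values measure the spread between these arrays, not between animals. Comparisons of 2 single arrays have no replicate check and no p. Of the 92 members, 78 were well above background on all 4 arrays, 84 were tested and 8 were too dim. The 10 pan-neuronal marker genes were well above background on all 4 arrays, as the tissue label requires.

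With LPS, 11 of the 84 tested potassium channel genes fell (13.1%, against 4.54% of all genes tested) and 2 rose (2.38%, against 5.62%), while 71 did not pass. The genes that fell were Kcng1, Kcnb2, Kcnk10, Kcnv1, Kcnj16, Kcna4, Kcna6, Kcnc4, Kcnip3, Kcnh3 and Kcnmb4, and those that rose were Kcng4 and Kcnab3. Every one of these 13 kept its direction in both genotypes and had LPS arrays that did not overlap the PBS arrays. The test favours such genes, since the residual of the fit is the gap between the LPS responses of the genotypes. This agreement is therefore no separate check. Sizes were modest, from 1.28-fold lower for Kcnmb4 to 1.84-fold lower for Kcng1. The median over the tested members was −0.14, against −0.03 over all genes tested, and 60 of the 84 (71.4%) had a negative estimate, against 56.0% of all genes tested. Both LPS arrays lay below both PBS arrays for 36 members (42.9%, against 29.4% of all genes tested) and above them for 13 (21.7% of all genes tested). The calls depended on how errors were pooled: 0 members passed without limma's intensity trend, beside 2.23% up and 0.28% down of all genes. With any 1 array left out almost no member passed, and fewer of all genes passed too. Scaling also set the number of calls, with 6 down and 2 up on the deposited value table (where 70.7% of all calls were up). Median scaling gave 15 members down and 2 up, but the down calls over all genes rose too. They were 1292 (7.54%) with median scaling, against 777 (4.54%) as reported, beside 963 up in both. Up calls were thus 42.7% of all calls with median scaling.

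**Figure D1:**
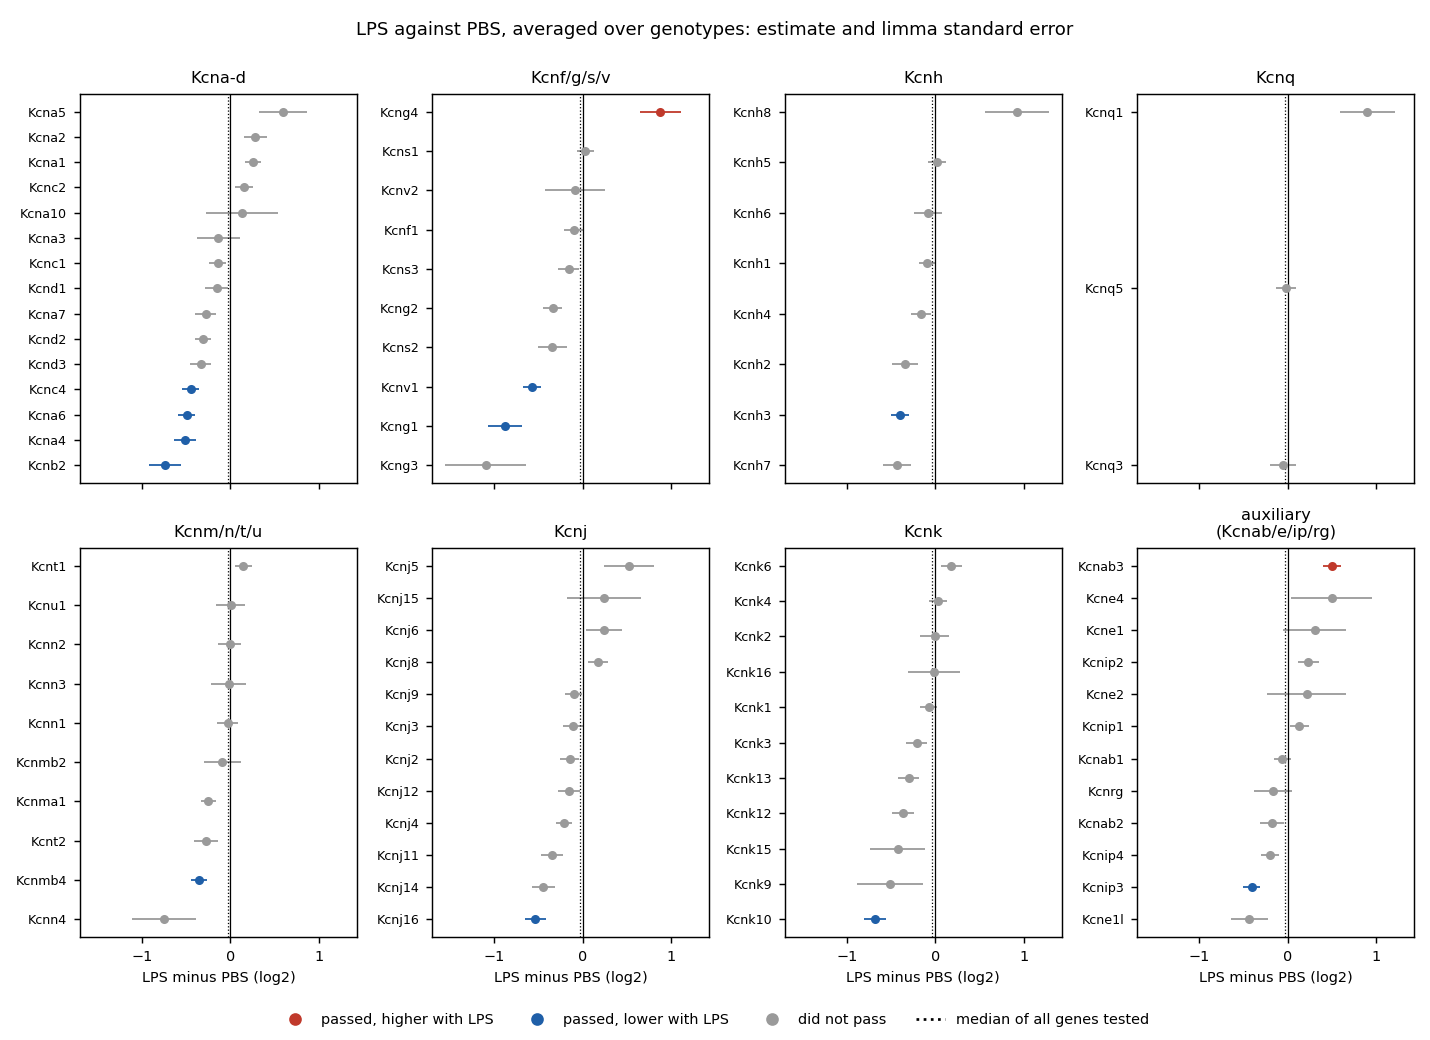
LPS minus PBS, averaged over genotypes, on the log2 scale for 81 of the 84 tested potassium channel genes by family (x axis; points are limma estimates, bars its standard errors; the dotted line is the median of all genes tested, −0.03). Blue genes (11) passed as lower with LPS, red genes (2) as higher and grey genes (68 plotted) did not pass.

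Kv2 channels, which carry the slow repolarising current of many neurons, and the silent subunits that join them included 4 of the 13 genes that passed. Kcnb2, the gene of a Kv2 pore subunit, had scaled signals of 0.496 and 0.535 with PBS (wild-type, then Nav1.8CreROSA26DTA) and of 0.383 and 0.249 with LPS. It fell by 0.74 ± 0.18 (adjusted p = 0.0338, limma), with the Nav1.8CreROSA26DTA LPS array the lowest. Kcng1 encodes a silent subunit, which forms no channel alone and alters Kv2 gating. Its signals were 0.220 and 0.262 with PBS and 0.144 and 0.118 with LPS, so both LPS arrays were the lower ones (−0.88 ± 0.19, adjusted p = 0.0208). Kcnv1, another silent subunit gene, was at 2.40 and 2.68 with PBS and at 1.65 and 1.76 with LPS. It fell by 0.58 ± 0.10, with the lowest adjusted p of all members (0.00601). In the other direction Kcng4 rose by 0.87 ± 0.23 (adjusted p = 0.0454), with scaled signals of 0.0636 and 0.0530 on the PBS arrays and of 0.113 and 0.1002 on the LPS arrays. Kcng4 was dim, and with normexp background correction its difference was 0.27 with an adjusted p of 0.431.

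The other silent subunit genes did not pass. Kcng2 was at 4.57 and 4.04 with PBS and at 4.02 and 2.86 with LPS (−0.34 ± 0.11, adjusted p = 0.0812), and Kcns2 at −0.35 ± 0.16 (adjusted p = 0.247). The values of Kcns3 (−0.16 ± 0.12), Kcnf1 (−0.10 ± 0.11), Kcnv2 (−0.09 ± 0.34) and Kcns1 (0.03 ± 0.10) lay nearer to 0. Kcng3 had the lowest estimate of all members, −1.10 ± 0.46, but an adjusted p of 0.189. Its signals were 0.0317 and 0.0212 with PBS and 0.0210 in wild-type LPS, while it was not well above background on the Nav1.8CreROSA26DTA LPS array (0.00696), where it was at least 1.33-fold lower than on the PBS array of that genotype. Over this family of 10 genes, 2 fell, 1 rose and 7 did not pass, with a median of −0.25.

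Among the 8 Kcna genes, which encode the Kv1 channels of axons and presynaptic terminals, 2 fell and 6 did not pass. Kcna4, the gene of a rapidly inactivating A-type channel, was at 0.842 and 0.660 with PBS and at 0.576 and 0.473 with LPS (−0.51 ± 0.12, adjusted p = 0.0290). Kcna6 went from 16.1 and 15.9 to 10.6 and 12.1 (−0.50 ± 0.10, adjusted p = 0.0106). The PBS arrays of Kcna6 lay close together and both LPS arrays well below them. The 2 main axonal Kv1 genes were not among those that fell. Kcna1 was at 19.0 and 15.5 with PBS and 21.2 and 19.8 with LPS (0.26 ± 0.09, adjusted p = 0.136), and Kcna2 at 1.74 and 1.28 with PBS and 1.78 and 1.84 with LPS (0.28 ± 0.13, adjusted p = 0.243). For both, each LPS array lay above each PBS array, by little in Kcna2 of wild-type (0.03). Kcna5 had 0.0368 and 0.0627 with PBS and 0.0639 and 0.0822 with LPS (0.59 ± 0.27, adjusted p = 0.221). Kcna5 was dim, and with normexp background correction its difference was 0.09 (limma, adjusted p = 0.824). Kcna3, known from T cells and microglia as well as neurons, stood at −0.14 ± 0.24 (adjusted p = 0.789), Kcna7 at −0.28 ± 0.12 and Kcna10 at 0.13 ± 0.41.

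Of the 4 Kcnc genes, whose Kv3 channels allow fast firing, Kcnc4 fell, from 2.61 and 2.71 with PBS to 1.84 and 2.07 with LPS (−0.45 ± 0.10, adjusted p = 0.0206). Its dimmer second probe had a difference of 0.01, and with the mean of both probes the gene was at −0.22 (adjusted p = 0.516). Kcnc1, an abundant Kv3 gene of fast-spiking interneurons, was at −0.15 ± 0.10 and Kcnc2 at 0.15 ± 0.10. The 3 Kcnd genes, which encode the somatodendritic A-type channels, all had estimates below 0 without passing. Kcnd2 was at 6.71 and 6.83 with PBS and 5.58 and 5.31 with LPS (−0.31 ± 0.09, adjusted p = 0.0627), Kcnd3 at 5.62 and 6.32 against 5.24 and 4.25 (−0.34 ± 0.12, adjusted p = 0.124) and Kcnd1 at −0.16 ± 0.13. The LPS arrays of Kcnd2 and of Kcnd3 lay below both PBS arrays. Kcnd2 passed as lower with normexp (adjusted p = 0.0243) and with median scaling (0.0293).

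**Figure D2:**
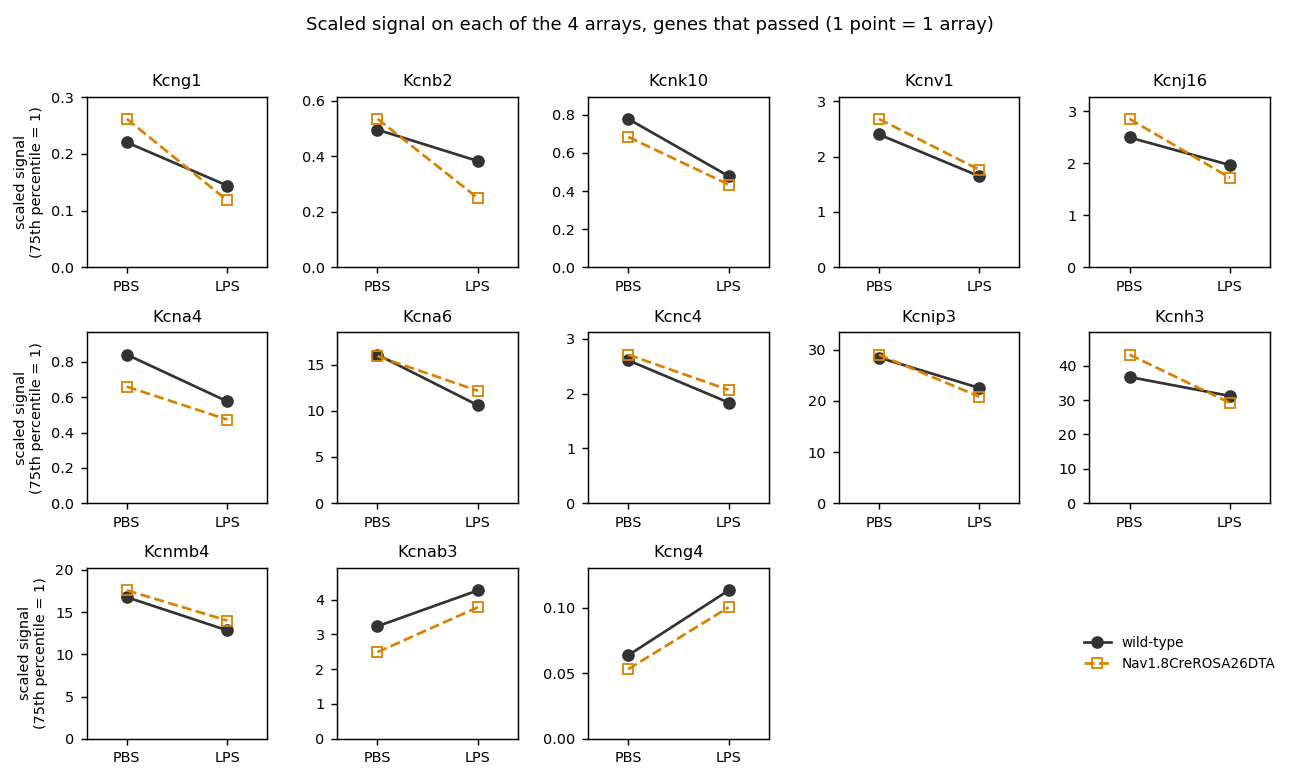
Scaled signal (y axis, from 0; the array's 75th percentile is 1) with PBS and with LPS (x axis) for the 13 potassium channel genes that passed the averaged LPS test, 1 point per array, wild-type as filled circles and Nav1.8CreROSA26DTA as open squares. Both lines fall for 11 genes and rise for Kcnab3 and Kcng4, and for Kcnb2 the Nav1.8CreROSA26DTA line falls from 0.535 to 0.249.

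The promoters of genes that passed are shown to let their base composition be seen beside the expression values. RefSeq promoters of GRCm38.p6 matched 67 of the 92 members and 8 of the 13 that passed, 5 of these with a single start site. For those 5 the 150 bases before the start are printed 5′ to 3′ on the gene's strand, with capitals marking a GC box (GGGCGG, on either strand) or a cAMP response element half-site (TGACG, on either strand). The windows are chr2:107290439-107290588 on the + strand for Kcna4, chr6:126740675-126740824 on the − strand for Kcna6, chr3:107458899-107459048 on the − strand for Kcnc4, chr8:119635681-119635830 on the − strand for Kcng4 and chr10:116473524-116473673 on the − strand for Kcnmb4.
Kcna4: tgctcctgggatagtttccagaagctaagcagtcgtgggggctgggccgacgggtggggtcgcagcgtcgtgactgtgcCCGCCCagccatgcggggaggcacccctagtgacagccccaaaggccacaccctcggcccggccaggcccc
Kcna6: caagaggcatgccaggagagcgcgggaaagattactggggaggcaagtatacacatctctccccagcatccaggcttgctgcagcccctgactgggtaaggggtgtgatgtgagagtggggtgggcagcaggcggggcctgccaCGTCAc
Kcnc4: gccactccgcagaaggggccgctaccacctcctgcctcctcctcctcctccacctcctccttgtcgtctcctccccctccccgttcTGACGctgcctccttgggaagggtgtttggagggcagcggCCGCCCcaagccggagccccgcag
Kcng4: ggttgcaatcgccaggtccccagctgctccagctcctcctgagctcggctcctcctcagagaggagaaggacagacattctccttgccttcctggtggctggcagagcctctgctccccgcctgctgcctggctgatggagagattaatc
Kcnmb4: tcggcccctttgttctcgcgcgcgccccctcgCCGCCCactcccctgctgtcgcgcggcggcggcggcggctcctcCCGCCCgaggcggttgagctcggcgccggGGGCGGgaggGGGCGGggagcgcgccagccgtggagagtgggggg

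In these windows Kcnmb4 had 4 GC boxes at 82.0% G and C, Kcna4 and Kcnc4 had 1 each, and Kcna6 and Kcng4 had 0. Kcng4, the gene among them that rose, had neither motif. Over 250 bases before the start, both strands searched, a GC box was found in 40 of 67 members with a promoter (59.7%, against 45.8% of 17492 protein-coding genes and 35.4% of all 27025 genes of that table). A TATA box (TATAAA) was found in 2 members (2.99%, against 13.7% of protein-coding genes and 14.3% of all), 1 of them Kcnj16. The TGACG half-site was found in 20.9% of members (22.6% of protein-coding genes and 19.8% of all), and a CCAAT box (CCAAT) in 32.8% (39.5% and 37.5%). None of these motifs contains another, and a match is a description of the sequence, not a bound site.

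Kcnh genes encode the ether-a-go-go type channels. Of 8 tested, Kcnh3, a forebrain channel gene of this family, fell and 7 did not pass. Kcnh3 was at 36.7 and 43.3 with PBS and at 31.2 and 29.2 with LPS (−0.40 ± 0.10, adjusted p = 0.0432). Its wild-type arrays were closer together (−0.24) than those of Nav1.8CreROSA26DTA (−0.57), and it no longer passed with cyclic loess scaling (adjusted p = 0.0682). Kcnh7 was at −0.44 ± 0.16 (adjusted p = 0.131), Kcnh2, the gene of the hERG-type channel, at −0.34 ± 0.15 (adjusted p = 0.204), Kcnh4 at −0.16 ± 0.11, Kcnh1 at −0.10 ± 0.09, Kcnh6 at −0.09 ± 0.16 and Kcnh5 at 0.01 ± 0.10. Kcnh8 had the highest estimate of all members, 0.92 ± 0.36 (adjusted p = 0.163). It was not well above background on the wild-type PBS array (0.0143), and stood at 0.0289 with PBS in Nav1.8CreROSA26DTA and at 0.0332 and 0.0449 with LPS, so it was at least 2.31-fold higher with LPS in wild-type.

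Of the 5 Kcnq genes, which include those of the M-current that restrains repetitive firing, 4 were tested and 0 passed (limma). Of the 4, 1 (Kcnq1) had an unadjusted p under 0.05, as had 23.6% of all genes tested. Kcnq3, an M-current gene, was at 0.339 and 0.381 with PBS and at 0.358 and 0.337 with LPS (−0.05 ± 0.15), and Kcnq5 was at −0.02 ± 0.11. The PBS and LPS arrays of Kcnq3 overlapped. Kcnq1, better known from heart and epithelia, was at 0.0282 and 0.0425 with PBS and at 0.0684 and 0.0608 with LPS (0.90 ± 0.31, adjusted p = 0.113). Both LPS arrays of Kcnq1 lay above both PBS arrays, but its 3 probes spread from −0.08 to 0.90.

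The group of Kcnm, Kcnn, Kcnt and Kcnu genes, most of them for calcium- or sodium-activated channels, held 12 genes, of which 10 were tested and 1 fell. Kcnmb4, the neuronal beta subunit gene of the large-conductance calcium-activated (BK) channel, was at 16.8 and 17.6 with PBS and 12.8 and 14.0 with LPS (−0.36 ± 0.09, adjusted p = 0.0339). Its second probe had a difference of −0.33. Kcnmb4 no longer passed with cyclic loess scaling, on the deposited value table or with the mean of its probes. The pore gene of the same channel, Kcnma1, was at 25.0 and 23.5 with PBS and 21.1 and 19.7 with LPS. Its LPS arrays also lay below both PBS arrays, and the difference of −0.25 ± 0.09 did not pass (adjusted p = 0.122), with its 5 probes between −0.40 and −0.03. Kcnmb2 was at −0.09 ± 0.21, and Kcnmb3 was well above background on no array. Kcnmb1, the beta subunit gene known from smooth muscle, was well above background on the Nav1.8CreROSA26DTA LPS array alone (0.0305, against 0.00351 with PBS in that genotype), at least 1.88-fold higher there. The second probe of Kcnmb1 was well above background on no array, and was at 0.0081 on the Nav1.8CreROSA26DTA LPS array. The small-conductance channel genes Kcnn1, Kcnn2 and Kcnn3 had differences of −0.03 ± 0.12, −0.01 ± 0.13 and −0.02 ± 0.19. The sodium-activated channel genes Kcnt1 and Kcnt2 were at 0.15 ± 0.10 and −0.28 ± 0.14, and Kcnu1 at 0.00 ± 0.16. Kcnn2 and Kcnu1 were near 0 on average because their single-genotype values had opposite signs, −0.28 and −0.32 in wild-type and 0.26 and 0.32 in Nav1.8CreROSA26DTA.

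Kcnn4 encodes the calcium-activated channel of red cells, lymphocytes and microglia. Its signals were 0.0237 and 0.0634 with PBS and 0.0296 in Nav1.8CreROSA26DTA LPS, and it was not well above background on the wild-type LPS array (0.0179). These signals were dim. Of the 3 Kcnn4 probes, those not used were well above background on 0 arrays and on 1. The latter probe had 0.01735 with PBS in wild-type and 0.0139 with PBS in Nav1.8CreROSA26DTA. On the probe used, the Nav1.8CreROSA26DTA PBS array was the highest, 2.68-fold above wild-type PBS. Neither averaged effect passed (limma, LPS −0.75 ± 0.36, adjusted p = 0.255, genotype 1.07 ± 0.36, adjusted p = 0.314). The summed scaled signal of the 3 erythroid markers tested (Hba-a1, Alas2 and Slc4a1) was also highest on that array, at 285, against 39.2 with PBS in wild-type and 95.2 and 151 with LPS, and most of each sum was Hba-a1. The part of blood in the Kcnn4 values was not tested.

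Among the 12 tested Kcnj genes, Kcnj16 fell and 11 did not pass. Kcnj16, whose subunit joins other inward rectifiers in astrocytes and kidney, was at 2.50 and 2.86 with PBS and at 1.97 and 1.72 with LPS (−0.54 ± 0.12, adjusted p = 0.0192). The fall was 0.35 in wild-type and 0.73 in Nav1.8CreROSA26DTA. In whole brain, fewer cells of a type and less RNA per cell cannot be told apart. Of the 8 astrocyte markers, 2 rose (Gfap and Aldh1l1) and 1 fell (Gja1), and their summed scaled signal was 76.0 and 90.2 with PBS and 88.8 and 94.9 with LPS. The gene of the strong rectifier Kcnj2 was at 3.39 and 2.65 with PBS and 2.75 and 2.66 with LPS (−0.15 ± 0.11, adjusted p = 0.470), with wild-type PBS apart from the other arrays. Kcnj4 was at −0.22 ± 0.09, Kcnj12 at −0.16 ± 0.13 and Kcnj14 at −0.45 ± 0.13 (adjusted p = 0.0627).

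G-protein-gated rectifier genes, whose channels open after inhibitory receptors are activated, did not pass: Kcnj3 was at −0.12 ± 0.11, Kcnj6 at 0.23 ± 0.20, Kcnj9 at −0.11 ± 0.10 and Kcnj5 at 0.52 ± 0.28. The ATP-sensitive channel couples potassium flux to cell energy. Its neuronal pore gene Kcnj11 was at 0.775 and 0.691 with PBS and 0.640 and 0.513 with LPS (−0.35 ± 0.12, adjusted p = 0.117), while the pericyte pore gene Kcnj8 was at 0.835 and 0.754 against 0.913 and 0.873 (0.17 ± 0.12, adjusted p = 0.429). The LPS arrays of Kcnj11 lay below, and those of Kcnj8 above, both PBS arrays. The sulfonylurea receptor gene next to each on the chromosome had a difference of the same sign without passing, at −0.26 ± 0.09 for Abcc8 beside Kcnj11 and 0.10 ± 0.18 for Abcc9 beside Kcnj8. Kcnj15 was at 0.24 ± 0.42, and Kcnj1, a kidney channel gene, was well above background on no array.

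Kcnk genes encode the tandem-pore background channels. Of 14, 11 were tested, Kcnk10 fell and 10 did not pass, with a median of −0.21. Kcnk10, the gene of a mechano- and lipid-gated channel, went from 0.779 and 0.684 with PBS to 0.478 and 0.434 with LPS (−0.68 ± 0.12, adjusted p = 0.00836). The fall was alike in size in wild-type (0.70) and Nav1.8CreROSA26DTA (0.66). Its relatives in that subfamily were near 0, Kcnk2 at −0.01 ± 0.16 and Kcnk4 at 0.03 ± 0.10. Kcnk13, the microglial background channel gene, was at 0.787 and 0.700 with PBS and 0.600 and 0.603 with LPS. Its LPS arrays lay below both PBS arrays, and the difference of −0.30 ± 0.12 did not pass (adjusted p = 0.174). Of the 9 microglia markers 4 fell (P2ry12, Tmem119, Cx3cr1 and Gpr34) and 1 rose (C1qa), with a median of −0.42 over the list. Their summed scaled signal was 121 and 117 with PBS and 120 and 117 with LPS, most of it from Siglech (83.7 and 71.9 with PBS, 86.0 and 81.9 with LPS). Kcnk6 was at 0.18 ± 0.12, Kcnk1, known from astrocytes and neurons, at −0.08 ± 0.09, Kcnk3 at −0.21 ± 0.12, Kcnk12 at −0.37 ± 0.12 (adjusted p = 0.101), Kcnk9 at −0.51 ± 0.37, Kcnk15 at −0.42 ± 0.31 and Kcnk16 at −0.01 ± 0.30. Kcnk5 was well above background on 1 array and Kcnk7 and Kcnk18 on none.

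Auxiliary subunit genes outside the BK channel went both ways: of 12 tested, 1 rose, 1 fell and 10 did not pass. Kcnab3, a cytoplasmic beta subunit gene of Kv1 channels, was at 3.24 and 2.49 with PBS and 4.27 and 3.78 with LPS (0.50 ± 0.10, adjusted p = 0.0125). Both LPS arrays lay above both PBS arrays, with the nearest pair 3.24 and 3.78. The other beta subunit genes, Kcnab1 (−0.06 ± 0.09) and Kcnab2 (−0.18 ± 0.14), did not pass. Kcnip3 encodes a calcium-binding protein that joins Kv4 channels and is also known as a transcriptional repressor. It was at 28.5 and 29.1 with PBS and 22.6 and 20.8 with LPS (−0.41 ± 0.09, adjusted p = 0.0220). A second probe was at −0.33, but another, dim one was at 0.55, and the mean over the probes was −0.06 (adjusted p = 0.849). The other Kv4-interacting genes were at −0.20 ± 0.10 (Kcnip4), 0.13 ± 0.11 (Kcnip1) and 0.23 ± 0.12 (Kcnip2). Kcne genes, single-span modifiers, were dim apart from Kcne1l and did not pass, at −0.43 ± 0.21 (Kcne1l), 0.21 ± 0.45 (Kcne2), 0.30 ± 0.35 (Kcne1) and 0.49 ± 0.46 (Kcne4), with Kcne3 well above background on no array. Kcnrg, the gene of a soluble inhibitor of channel assembly, was at −0.17 ± 0.22.

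Within single genotypes few members moved by 2-fold. In wild-type, 2 of 80 members measured on both arrays were at least 2-fold higher with LPS and 0 lower (4.03% of all genes moved that far either way), namely Kcne4 (1.37) and Kcnq1 (1.28). In Nav1.8CreROSA26DTA, 3 of 82 were at least 2-fold lower and 0 higher (4.53% of all genes), namely Kcng1 (−1.15), Kcnb2 (−1.10) and Kcnn4 (−1.10). The member medians were −0.13 in wild-type and −0.15 in Nav1.8CreROSA26DTA, against −0.02 and −0.04 over all genes measured. Of the 78 members measured on all 4 arrays, 59 had the same sign in both genotypes. The 5 widest gaps between the LPS responses, Nav1.8CreROSA26DTA minus wild-type, were those of Kcne4 (−1.76), Kcne1l (−0.97), Kcne1 (−0.94), Kcnq1 (−0.76) and Kcnb2 (−0.73). They rest on 1 array each and were not tested. Of these, Kcne4, Kcne1 and Kcnq1 were dim, with scaled signals of 0.0187 to 0.0684.

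**Figure D3:**
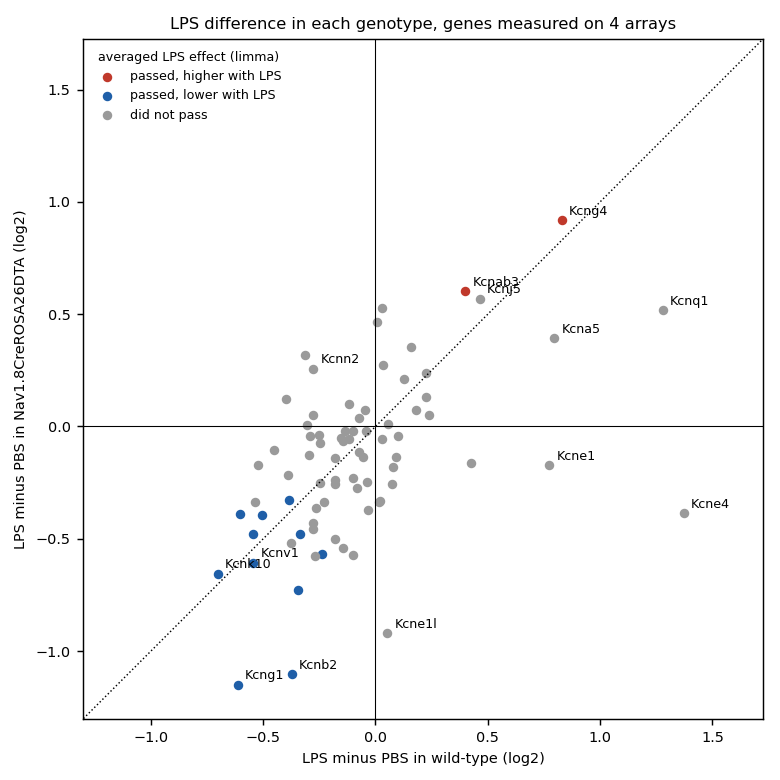
LPS minus PBS in wild-type (x axis, log2) against the same in Nav1.8CreROSA26DTA (y axis, log2) for the 78 potassium channel genes measured on all 4 arrays, 1 point per gene, coloured by the averaged limma test; the dotted line marks equal responses. The 11 genes that fell lie at the lower left and the 2 that rose in the upper right, while Kcne4 (1.37 and −0.39) lies farthest from the line.

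Between genotypes, 0 of 84 tested members passed in either direction (limma; 0.304% of all genes tested were higher and 0.105% lower in Nav1.8CreROSA26DTA), and 11 had an unadjusted p under 0.05, as had 10.2% of all genes tested. The members' median was −0.05, against 0.02 over all genes tested. The lowest adjusted p was that of Kcnj5, whose subunit forms G-protein-gated channels in heart and brain. Kcnj5 was at 0.0257 and 0.0355 in wild-type (PBS, then LPS) and at 0.0604 and 0.0895 in Nav1.8CreROSA26DTA. These signals were dim, as the lowest signals well above background were 0.0124 to 0.0167. Both Nav1.8CreROSA26DTA arrays were the higher ones, by 2.35-fold with PBS and 2.52-fold with LPS (1.28 ± 0.28, adjusted p = 0.108). Kcne1l was at 0.304 and 0.316 in wild-type, at 0.638 with PBS in Nav1.8CreROSA26DTA and at 0.337 with LPS, so that a single array stood apart (0.58 ± 0.21, adjusted p = 0.366). Kcng3 (−1.09 ± 0.46) and Kcnh8 (0.72 ± 0.36) had wide errors and each was not well above background on 1 array. With PBS, 3 of 81 members were at least 2-fold higher in Nav1.8CreROSA26DTA and 0 lower (1.62% of all genes differed that far either way), namely Kcnn4, Kcnj5 and Kcne1l. With LPS, 1 of 79 was higher (Kcnj5) and 1 lower (Kcne4, −1.16), against 1.20% of all genes.

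Among brighter members the genotype values were small. Kcnc1 was at 4.69 and 3.94 in wild-type and 3.38 and 3.29 in Nav1.8CreROSA26DTA (−0.37 ± 0.10, adjusted p = 0.183). Kcnab1 was at −0.28 ± 0.09 (adjusted p = 0.299). For the probes used for Kcnc1 and Kcnab1, both Nav1.8CreROSA26DTA arrays lay below both wild-type arrays, without passing. The other Kcnc1 probes, also measured on all 4 arrays, differed in sign, at −0.24 and 0.14. On the probe at 0.14, Nav1.8CreROSA26DTA was above wild-type with PBS (3.16 against 2.98) and with LPS (2.62 against 2.28). The share of all genes whose genotypes did not overlap was not counted.

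**Figure D4:**
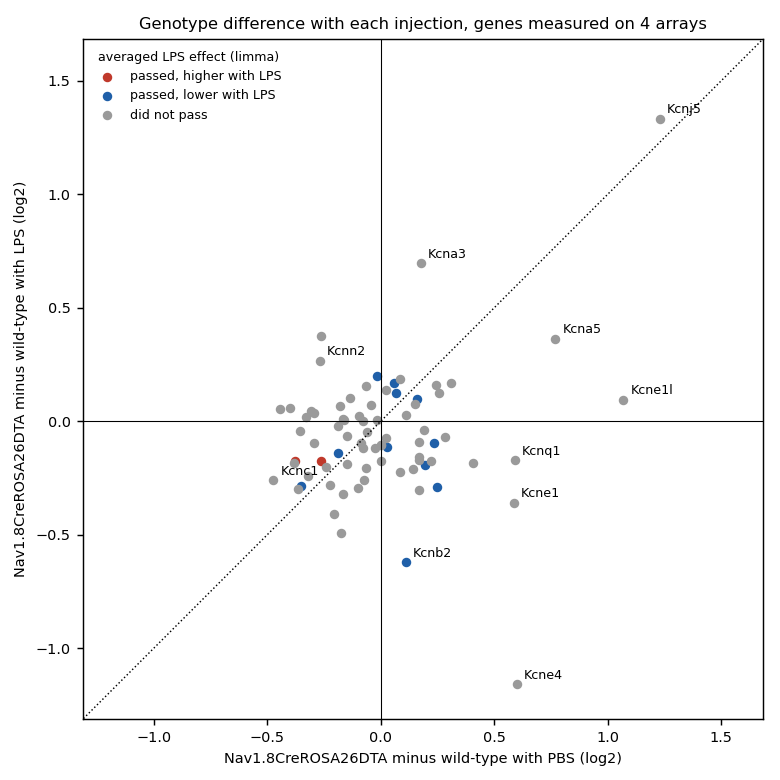
Nav1.8CreROSA26DTA minus wild-type with PBS (x axis, log2) against the same with LPS (y axis, log2) for the 78 potassium channel genes measured on all 4 arrays, 1 point per gene, coloured by the averaged LPS test; the dotted line marks equal genotype differences. Kcnj5 lies apart at 1.23 and 1.33, while Kcne1l is at 1.07 with PBS and 0.09 with LPS.

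Genes that work with the channels were taken from lists chosen with earlier results of these data known. Of 18 partner genes (scaffolds, Kv2, Kv4 and BK auxiliary subunits and sulfonylurea receptors), 16 were tested and 0 passed (limma; the lowest adjusted p was 0.115, that of Abcc8), with a median of −0.07. Among them the Kv4 auxiliary genes Dpp6 and Dpp10 were at −0.02 ± 0.09 and −0.22 ± 0.09, and the Kv2 auxiliary gene Amigo1 at −0.27 ± 0.10. Vapb, whose protein anchors Kv2 channels at endoplasmic reticulum contacts, was at 10.4 with PBS and 10.3 with LPS in wild-type, and at 4.03 and 15.4 in Nav1.8CreROSA26DTA (0.96 ± 0.34, adjusted p = 0.119). Of 15 pacemaker channel, sodium pump and cotransporter genes, 1 rose and 1 fell, with a median of −0.14. Hcn3, a pacemaker channel gene, fell by 0.58 ± 0.13 (adjusted p = 0.0184), and the potassium-chloride cotransporter gene Slc12a7 rose by 0.82 ± 0.20 (adjusted p = 0.0337). The neuronal chloride extruder gene Slc12a5 was at −0.20 ± 0.10.

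Markers of cell types were read beside the channel genes. Of the 10 pan-neuronal genes 2 fell (Tubb3 and Map2) and 0 rose, with a median of −0.14, beside −0.14 for the potassium channel genes. Their summed scaled signal was 473 and 461 with PBS and 425 and 412 with LPS. Of the 5 interneuron markers 2 fell (Tac1 and Sst). The part of neuronal content in the channel values was not tested. Of 5 oligodendrocyte precursor markers 4 fell, with sums of 14.1 and 18.3 with PBS and 7.45 and 11.6 with LPS, and of 8 oligodendrocyte markers 2 fell, with sums of 139 and 156 against 93.8 and 181. Of 8 pericyte and smooth muscle markers 2 fell and 1 rose, of 7 endothelial markers 3 fell and 1 rose, and of 6 tested neutrophil and monocyte markers 5 rose.

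Of 6 pairs of channel genes that lie next to each other on a chromosome, both tested, 4 had LPS differences of the same sign and 2 of opposite sign. In the Kcna5, Kcna1 and Kcna6 cluster of chromosome 6 the differences with LPS were 0.59, 0.26 and −0.50, of which the last passed. Kcnj16 and Kcnj2 on chromosome 11 were at −0.54 and −0.15, Kcnj6 and Kcnj15 on chromosome 16 at 0.23 and 0.24, and Kcna3, Kcna2 and Kcna10 on chromosome 3 at −0.14, 0.28 and 0.13. Gene order is that of GRCm38.p6, with protein-coding genes only. Where a member had several measured probes (35 genes), their LPS differences had the same sign in 29, with a median SD between probes of 0.146. The exceptions included Kcnc4, Kcnd1, Kcnh1, Kcnip3 and Kcnq1.

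**Figure D5:**
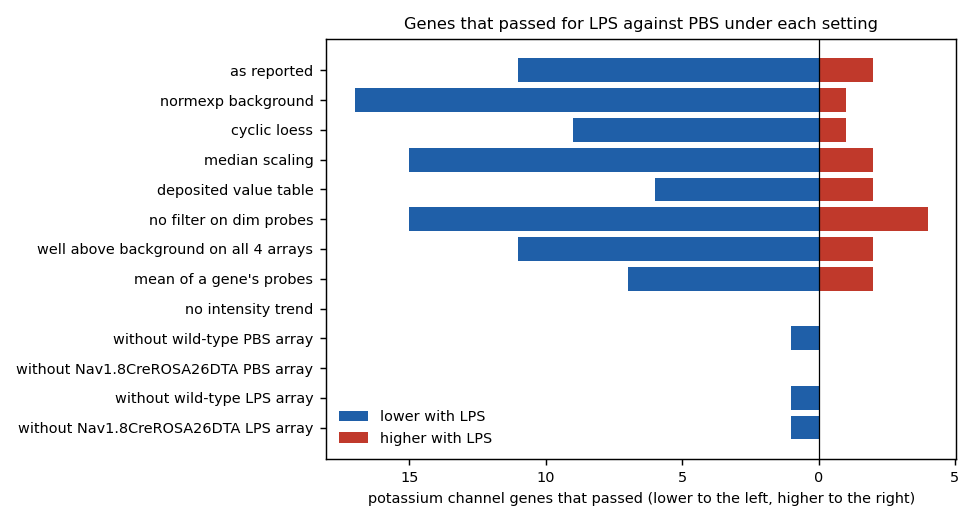
Number of potassium channel genes that passed for LPS against PBS (x axis; lower with LPS to the left of 0, higher to the right) under the reported setting and each alternative (y axis). The counts run from 11 lower and 2 higher as reported to 17 and 1 with normexp and to 0 and 0 without the intensity trend. Without the trend or with an array left out, fewer of all genes passed too.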

How the data were processed

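Whole-brain RNA of 4 groups was measured on 4 single-colour Agilent arrays, 1 per group. Feature Extraction 11.0.1.1 is named in the submitters' processing notes, and 12.0.3.1 in the file headers. The deposited spot intensity is the processed signal, which the scanner software had background-subtracted and detrended within the array, per the file headers. Its spot marks (brightness over background, saturation, outliers) are 0 or 1 values, per the file headers. The authors' deposited value table is also a linear intensity. It equalled the processed signal times a factor for each array (1.82, 2.09, 1.83 and 1.57) within 0.1% for at least 59304 of 59305 spots, with column medians of 97.2, 91.4, 103 and 102. No source used here says how these factors were chosen.

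Here log2 of the processed signal was centred on each array's 75th percentile (612, 514, 634 and 726 for wild-type PBS, Nav1.8CreROSA26DTA PBS, wild-type LPS and Nav1.8CreROSA26DTA LPS). The share of spots well above background ranged from 66.5% to 69.5%, with 0 saturated spots. Outlying spots, 81 to 96 per array and 0 of them on potassium channel probes, were left out. Repeat spots of 300 probes printed 10 times had an SD of 0.0418 to 0.0456 (log2). The precision is limited by there being 1 array per group. RefSeq accessions (GRCm38.p6) gave 33767 of 56605 probes 1 symbol. For each gene the probe measured well on most arrays was used, and the brightest of those. Effects came from limma 3.58.1 in R 4.3.3 (terms for genotype and agent, intensity trend, two-sided), tested on simulated data. The files hold no mean signal, so normexp used the median signals, with an offset of 50. With an array left out, the other 3 were fitted with the term of the comparison alone, the lone array being assumed to vary like the rest.

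The arrays lay on 1 slide read in 1 scan. PBS and LPS arrays lay in different slide rows and the genotypes in different columns, so slide position cannot be told apart from group. Genes named were those that passed, the widest estimates, members 2-fold apart in a pair of arrays, the highest and lowest of each family, the widest response gaps and genes known for a role. Most of the remaining members were named for completeness. A few genes are counted in the totals and not reported here by name. Where a gene was dim on 1 array, its bright signal was set against the higher of that array's lowest well-measured signal and the gene's own, as at least N-fold. Members and lists were chosen with earlier results of these data known.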

Additional observations from a re-analysis of the deposited data

Results flagged for a closer look

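Some genes moved in opposite directions in the 2 groups of a contrast, each move larger than 0.129 on the log2 scale. That is 2 SDs of a difference between repeat spots within an array, and it leaves out the spread between arrays. The limma standard errors, for 2 arrays against 2, were 0.10 for Kcnip4, 0.34 for Kcnv2 and 0.46 for Kcne4. Moves near the cut-off can thus lie within the spread between arrays. The share of all genes that meet this rule was not counted. None of these differences was tested, since each rests on 1 array per group. The LPS response of Nav1.8CreROSA26DTA minus that of wild-type was −1.76 for Kcne4 (1.37 in wild-type and −0.39 in Nav1.8CreROSA26DTA), −0.94 for Kcne1 (0.77 and −0.17), −0.59 for Kcna10 (0.43 and −0.16), 0.64 for Kcnu1 (−0.32 and 0.32) and 0.54 for Kcnn2 (−0.28 and 0.26). The genotype difference with LPS minus that with PBS takes the same values for these 5 genes, with opposite signs at each injection. It was 0.60 with PBS and −1.16 with LPS for Kcne4, 0.58 and −0.36 for Kcne1, 0.40 and −0.18 for Kcna10, −0.26 and 0.37 for Kcnu1, and −0.27 and 0.27 for Kcnn2. For 8 more genes the genotype difference alone changed sign between the injections. With LPS minus with PBS, it was −0.76 for Kcnq1 (0.59 and −0.17), −0.54 for Kcng1 (0.25 and −0.29), −0.47 for Kcnd3 (0.17 and −0.30), −0.40 for Kcnh2 (0.22 and −0.18), −0.38 for Kcnj16 (0.19 and −0.19), −0.35 for Kcnj12 (0.14 and −0.21), −0.34 for Kcnip4 (0.17 and −0.17) and −0.33 for Kcnv2 (0.17 and −0.16). Kcna10, Kcne1, Kcne4, Kcnq1 and Kcnv2 had scaled signals of 0.0177 to 0.0684, where the lowest signals well above background were 0.0124 to 0.0167.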

How the results depend on the processing

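All 13 genes that passed for LPS kept their direction under all 12 alternatives, but not their calls. Leaving out an array could not change their sign, since their LPS arrays did not overlap their PBS arrays. Dropping the trend or changing the filter on dim probes leaves the estimates as they are. Against 11 down and 2 up, normexp gave 17 down and 1 up, cyclic loess 1 up, no filter on dim probes 4 up, the mean of a gene's probes 7 down, and no intensity trend 0 of each. The share of all genes called moved too. Down calls were 4.54% as reported, 6.80% with normexp, 3.64% with the mean of probes and 0.28% without the trend. Up calls were 5.62% as reported, 5.93% with normexp, 5.53% with cyclic loess, 6.75% unfiltered and 2.23% without the trend. On the deposited values there were 6 down, beside 2.53% of all genes, and Kcna4, Kcnb2, Kcnc4, Kcnh3 and Kcnmb4 no longer passed. Calls were lost for Kcnc4, Kcnh3, Kcnip3, Kcnk10 and Kcnmb4 with the mean of a gene's probes. Cyclic loess lost those of Kcng4, Kcnh3 and Kcnmb4. With an array left out, 1 side of the comparison held a single array. Almost no member passed then, and fewer of all genes passed too, both up and down. The members' LPS median (−0.143) was −0.123 with cyclic loess, −0.199 with median scaling, −0.074 on the deposited values, −0.126 unfiltered and −0.170 to −0.115 with an array left out. For genotype, 3 up and 2 down of 92 members passed unfiltered, beside 654 up and 304 down of all 23461 genes. Under the other 11 alternatives 0 members passed. The genotype median (−0.046) was −0.083 on the deposited values and −0.114 to 0.030 with an array left out. LPS differences that had not passed changed sign for Kcne1 (−0.142) and Kcne4 (−0.014) with normexp, for Kcnn2 (0.012) with cyclic loess, and for Kcnk2 (0.061), Kcnn2 (0.060) and Kcnq3 (0.019) on the deposited values. With an array left out they ran through 0 for Kcna3 (−0.485 to 0.211), Kcnc1 (−0.382 to 0.091), Kcne1l (−0.968 to 0.10), Kcne4 (−0.086 to 1.074), Kcnj2 (−0.326 to 0.030), Kcnj5 (−0.149 to 1.183), Kcnk2 (−0.085 to 0.068), Kcnn2 (−0.144 to 0.125) and Kcnq3 (−0.134 to 0.033). The cause was not tested, and leaving out an array leaves 3. No paired analysis was possible because each group holds 1 array and the labels carry no replicate numbers. Signals near background limit Kcna5, Kcna10, Kcne1, Kcne2, Kcne4, Kcng3, Kcnh8, Kcnj5, Kcnj15, Kcnk9 and Kcnn4.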

Other observations

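Noncoding loci that bear a Kcn symbol were measured beside the channel genes and did not pass for LPS. Kcnq1ot1, the imprinted antisense transcript of the Kcnq1 locus, differed by −0.02 ± 0.11 (limma, adjusted p = 0.944), Kcnd3os by −0.28 ± 0.21 (adjusted p = 0.494) and Kcnmb4os2 by −0.36 ± 0.13 (adjusted p = 0.145), the last beside −0.36 for Kcnmb4 itself. Kcnmb4os1 was well above background on no array.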
